A study of Danio rerio with 3 samples.

Results

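The regions described here are all called regions of H3K27me3 and H3K27ac on zebrafish chromosome 4 whose summit lies at 30 Mb or beyond (build danRer11), a stretch called the long arm below. They number 683 of the 123094 regions in 3 deposited peak lists. The H3K27me3 library gave 64 of 17125, H3K27ac replicate 1 gave 232 of 45538 and H3K27ac replicate 2 gave 387 of 60431. The rule that chose them uses position alone, but it was set with earlier results of these data known. Peaks that touched or overlapped within a list were merged into 1 region. All libraries came from CUT&RUN, in which a nuclease tethered by an antibody releases the DNA around a histone mark, on the posterior trunk of wild-type embryos at 16 hours post fertilisation. No treatment or mutant was compared. How many embryos went into a library, and whether both H3K27ac libraries share a clutch, is not in the labels, so their spread may be purely technical. The posterior trunk holds many cell types, and a mark present in few cells cannot be told apart from a low level of it in many.

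H3K27ac, the acetylation of a lysine in the tail of histone H3, marks active promoters and enhancers. H3K27me3, the trimethylation of the same lysine, is laid down by the Polycomb complex PRC2 at repressed developmental genes. The acetyl and methyl groups cannot sit on the same lysine at once. The long arm of chromosome 4 is known in zebrafish as a repeat-rich, late-replicating and largely heterochromatic stretch. It carries large families of related immune-receptor and zinc-finger genes beside tandem arrays of small non-coding RNA genes. Short reads are difficult to assign among such copies, and how the authors placed them was not tested. The files give no centromere, and neither a genome nor a gene annotation of danRer11 was used, so each region is identified by its position and no sequence is shown.

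No read totals were used. Solving every peak's deposited fold and p-value together for the peak caller's genome-wide background gave 0.370, 0.806 and 1.10 tags in H3K27me3 and in H3K27ac replicates 1 and 2. On that scale the libraries had 33.6, 73.2 and 100% of the depth of H3K27ac replicate 2. The same calculation gives the pileup, which is the number of tags over a region's summit. It also gives the tags in the 10-kb window around it. Window tags over the genome-wide background are called the 10-kb tag density. It cannot fall under 1 and has a value only where a region was called, and densities of different antibodies are not on 1 scale. The fold is the authors' own value for a peak, the ratio of pileup to local background, and describes peaks within 1 list only.

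Called regions of both marks were sparse on the long arm. It spans 48.0 Mb up to the last called region, which is 61.6% of the chromosome, and held 13.2% of the chromosome's H3K27me3 regions and 17.8 and 20.7% of its H3K27ac regions in replicates 1 and 2. H3K27me3 had 1.33 regions per Mb on the long arm, against 14.0 below 30 Mb. H3K27ac replicate 1 had 4.83 per Mb on the long arm, against 35.8 below 30 Mb. In replicate 2 the values were 8.06 per Mb on the long arm and 49.3 below 30 Mb. The log2 ratio, long arm over below 30 Mb, was -2.75 ± 0.19 for H3K27ac (SD, n = 2) and -3.39 for H3K27me3, which has no replicate. The drop in called H3K27ac regions per Mb was larger than the spread between replicates. With 2 libraries the smallest p of an exact two-sided sign-flip test is 0.5, so no test was run on any difference between the stretches.

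**Figure D1:**
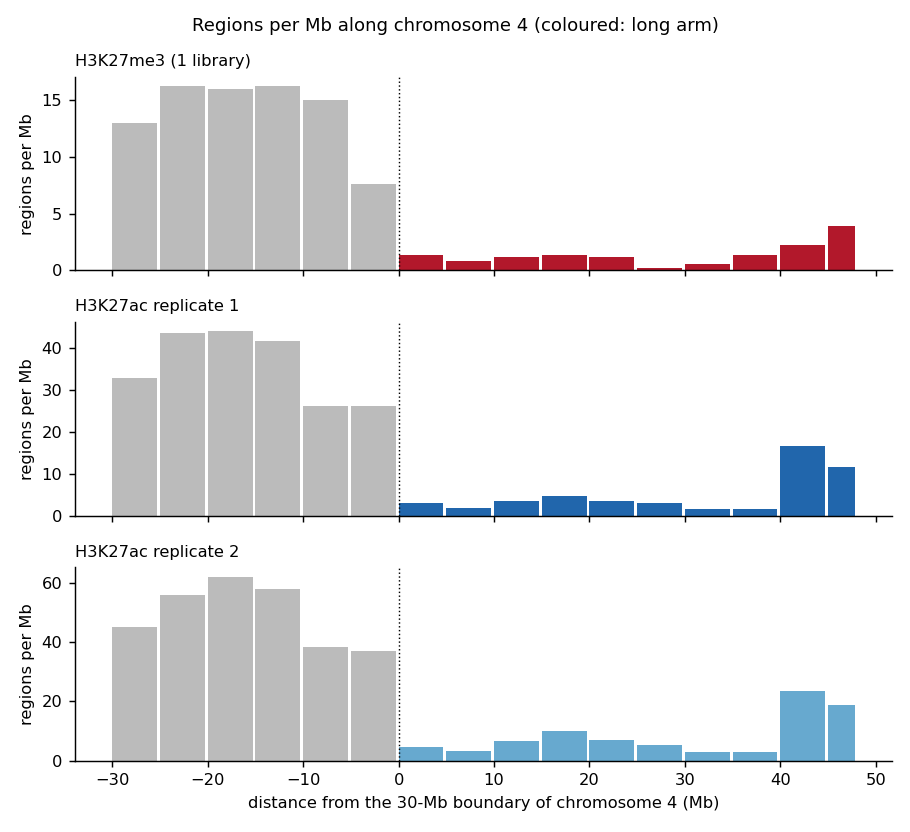
Called regions per Mb in 5-Mb bins along chromosome 4 (the last bin is shorter), plotted by distance from the 30-Mb boundary, with 1 panel per library. Coloured bars are the long arm and grey bars lie below 30 Mb. In all 3 panels each coloured bar is lower than each grey bar, and the bars from 40 Mb beyond the boundary are the highest coloured ones.

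No other chromosome was as sparse. The other 24 chromosomes had 10.2 to 18.5 H3K27me3 regions per Mb, and 29.4 to 39.4 and 41.6 to 49.5 H3K27ac regions per Mb in replicates 1 and 2. Below 30 Mb, chromosome 4 lay inside each of these ranges, so the low values belonged to the long arm and not to the whole chromosome. Among the 9 full 5-Mb bins of the long arm, 8 held fewer regions than the emptiest of 242 such bins on the other chromosomes, in each of the 3 lists. Those 8 bins lie between 30 and 70 Mb. The share of sequence under regions was 0.0692, 0.192 and 0.319% on the long arm in H3K27me3 and H3K27ac replicates 1 and 2, against 0.738, 1.48 and 2.17% below 30 Mb.

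**Figure D2:**
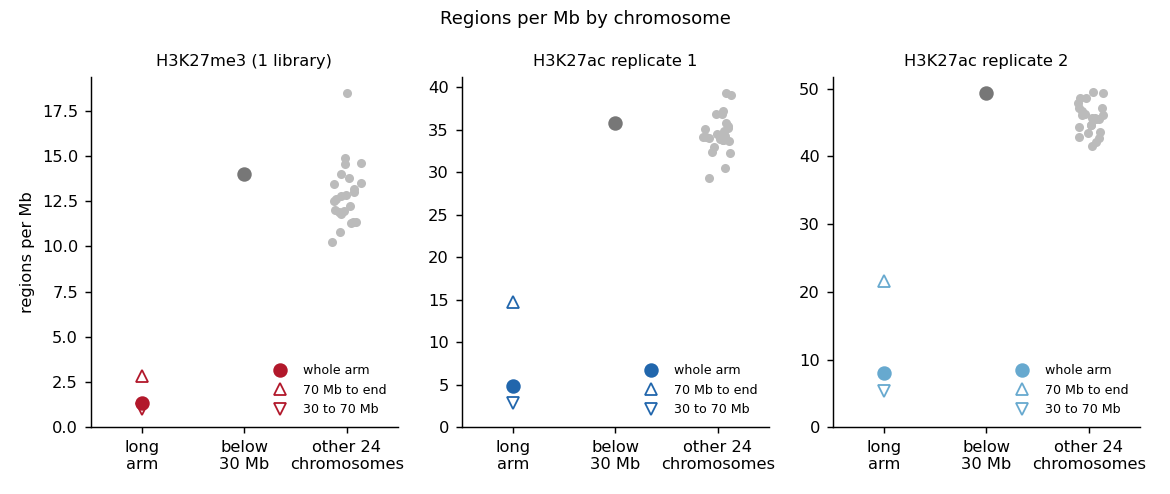
Called regions per Mb (vertical axis) on the long arm, on chromosome 4 below 30 Mb and on each of the other 24 chromosomes, with 1 panel per library. Open triangles give the long arm from 70 Mb to its end (pointing up) and from 30 to 70 Mb (pointing down). All symbols of the long arm lie under every other chromosome, at 1.33, 4.83 and 8.06 regions per Mb for the whole arm.

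Between 15 and 35 Mb the largest drop from one bin to the next, as a ratio, lay at the chosen boundary in each list, with a smaller one before it. The boundary was set with earlier results of these data known and a bin edge falls on it. The drop is therefore a description and no independent evidence for that position. The bin from 30 to 35 Mb held 15 and 23 H3K27ac regions in replicates 1 and 2, against 131 and 184 in the bin from 25 to 30 Mb. H3K27ac counts were 209, 131, 131 and 15 in replicate 1 and 290, 191, 184 and 23 in replicate 2, over the 4 bins from 15 to 35 Mb. For H3K27me3 the same bins held 81, 75, 38 and 7 regions. The first H3K27ac region beyond the boundary started at position 30293770 in replicate 1 and at 30293678 in replicate 2, so both replicates called the same place. Its fold was 4.70 and 7.08 and its density 1.66 and 1.27 in replicates 1 and 2. The last H3K27ac region before the boundary, at 29966564 in replicate 1 and 29966503 in replicate 2, had folds of 5.21 and 10.6. The first H3K27me3 region of the long arm lay further in, at 31647196, with a fold of 3.24.

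Within the long arm, the last 8.04 Mb differed from the rest. The split at 70 Mb was made with earlier results of these data known, and it is given as a description. From 70 Mb to the end H3K27ac had 14.7 and 21.7 regions per Mb in replicates 1 and 2, against 2.85 and 5.33 from 30 to 70 Mb. H3K27me3 had 2.86 per Mb from 70 Mb to the end, against 1.02 from 30 to 70 Mb. On the log2 scale this difference was 2.19 ± 0.24 for H3K27ac (SD, n = 2) and 1.48 for H3K27me3. The end of the arm thus held 118 of the 232 H3K27ac regions of replicate 1 and 174 of the 387 of replicate 2, against 23 of the 64 H3K27me3 regions. In the outermost 1 Mb there were 6 H3K27me3 regions, and 19 and 25 H3K27ac regions in replicates 1 and 2.

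Empty stretches were long. The longest with no region of any list ran from 70593252 to 71961833, or 1.37 Mb, and lay just inside the denser end of the arm. Below 30 Mb the longest was 0.266 Mb. The long arm held 4 stretches of at least 1 Mb that were empty in all lists, and none was found below 30 Mb. H3K27me3 alone had no called region for 5.06 Mb, from 53719238 to 58779205, against at most 0.707 Mb below 30 Mb. Fewer regions per Mb also mean longer gaps, and a stretch without a called region need not lack the mark. A total of 32.8 Mb of the arm lay in the 18 stretches of at least 1 Mb without an H3K27me3 region.

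Region width was close to that below 30 Mb over the whole arm. Within the arm H3K27ac differed from it in both stretches, and the H3K27me3 median was higher from 70 Mb to the end. The median H3K27me3 region measured 398 bp on the long arm, against 366 bp below 30 Mb. H3K27ac regions measured a median of 358 bp in replicate 1 and 343 bp in replicate 2 on the long arm, against 352 and 362 bp below 30 Mb. The mean difference of -6.75 ± 17.3 bp for H3K27ac (SD, n = 2) was within the spread between replicates. From 70 Mb to the end the H3K27ac medians were 429 and 413.5 bp in replicates 1 and 2, above all 24 other chromosomes, against 294.5 and 301 bp from 30 to 70 Mb, below all 24. That difference of 123.5 ± 15.6 bp (SD, n = 2) was larger than the spread between replicates. H3K27me3 measured 508 bp at the 23 regions from 70 Mb to the end, above all 24 other chromosomes, which reached at most 419 bp. From 30 to 70 Mb it measured 390 bp, inside their range. The quartiles of the 23 regions were 235.5 and 768.5 bp, and the 6 regions of the outermost 1 Mb had a median of 279.5 bp. Of the 23 regions, 6 lay in 1 domain and 3 in another, so few places weigh on the median of 508 bp. For the whole arm against the stretch below 30 Mb, the H3K27me3 difference was 32.5 bp with all peaks. Restricted to peaks of -log10 q 5 or more, that difference became -291 bp, so its direction turned. Regions with more than 1 summit made up 7.76 and 12.7% of H3K27ac regions on the long arm in replicates 1 and 2, against 18.7 and 23.1% below 30 Mb. The share was lowest from 30 to 70 Mb, at 2.63 and 4.69% in replicates 1 and 2. From 70 Mb to the end it was 12.7% (exact 95% interval 7.29 to 20.1%) and 22.4% (16.5 to 29.3%), intervals that overlap those below 30 Mb. On the other 24 chromosomes the share ran from 14.7 to 19.6% in replicate 1 and from 21.7 to 28.6% in replicate 2. The end of the arm thus lay under that range in replicate 1 and inside it in replicate 2. The widest region of each list lay in 1 of 2 places. H3K27me3 had 2222 bp from 77558427 to 77560648, H3K27ac replicate 1 had 1311 bp from 48617153 to 48618463 and H3K27ac replicate 2 had 1443 bp from 48617031 to 48618473, so both H3K27ac lists had their widest region at the same site.

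H3K27ac regions of the long arm stood in windows with few tags. The median 10-kb tag density of H3K27ac was 1.27 in replicate 1 and 1.09 in replicate 2 on the long arm, against 3.57 and 3.23 below 30 Mb. The log2 difference was -1.53 ± 0.05 (SD, n = 2), larger than the spread between replicates. A density of 1, with no more tags in the window than the genome-wide background, was found at 25.4% of replicate 1 regions and 45.0% of replicate 2 regions on the long arm. Below 30 Mb these shares were 2.14 and 5.27%, and on the other 24 chromosomes they reached at most 5.84 and 12.7%. H3K27me3 had a median density of 2.49 on the long arm, against 5.89 below 30 Mb, but its 2 stretches differed in direction. The median was 7.02 at the 23 regions from 70 Mb to the end, above the value below 30 Mb, and 1.84 at the 41 regions from 30 to 70 Mb. Of these 23 regions, 6 stood within 10.8 kb at densities of 84.9 to 136, and 3 within 3.04 kb at 39.7 to 44.1. Regions so close share window tags, so few places weigh on the median of 7.02. At the 12 regions from 75 Mb on the median was 3.78, under the value below 30 Mb.

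**Figure D3:**
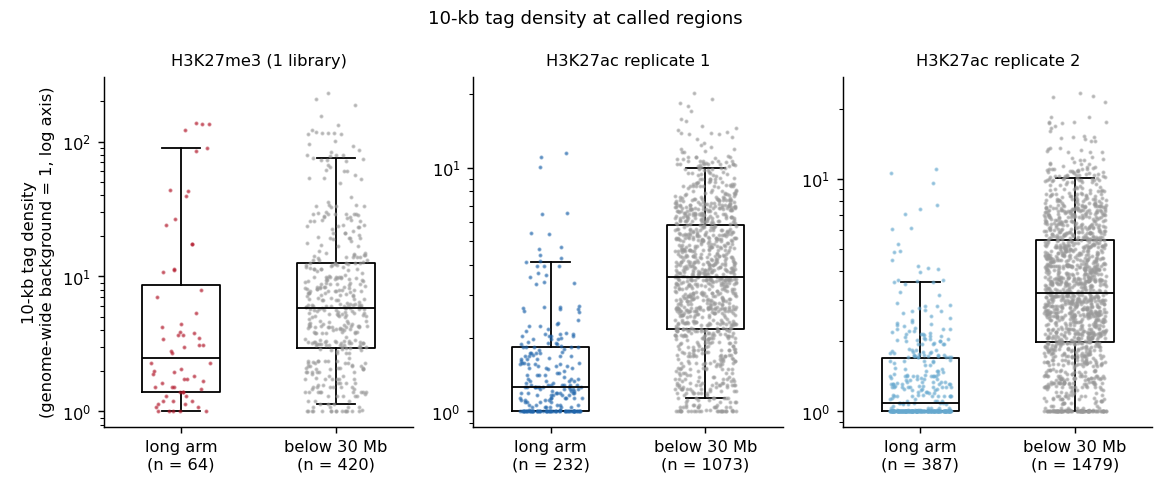
The 10-kb tag density (log axis, genome-wide background at 1) of each called region on the long arm and on chromosome 4 below 30 Mb, with 1 panel per library. Boxes give the median and quartiles, whiskers the central 90% and dots single regions. The H3K27ac medians of the long arm, 1.27 and 1.09, lie near the floor of 1, while a few H3K27me3 regions of the long arm reach densities near 136.

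H3K27ac regions of the long arm had higher folds and lower summits than those below 30 Mb. Pileup, density and the share of tags at the summit were all solved from the deposited fold and p-value. At a low background few tags give a high fold, so these measures are not findings separate from the low density above. The median pileup of H3K27ac was 8 tags in both replicates on the long arm, against 14 in both below 30 Mb. The median deposited fold was 4.43 and 3.81 in replicates 1 and 2 on the long arm, against 3.73 and 3.34 below 30 Mb. That is a log2 difference of 0.22 ± 0.04 (SD, n = 2), larger than the spread between replicates. H3K27me3 had a median fold of 4.52 and a pileup of 10.5 on the whole long arm, against 3.75 and 12 below 30 Mb. From 70 Mb to the end its fold was 3.69 and its pileup 23, against 4.93 and 8 from 30 to 70 Mb, so only the regions from 30 to 70 Mb had a higher fold and a lower summit than those below 30 Mb. In each list the median fold of the whole long arm was above that of all 24 other chromosomes. The share of window tags that lay at the summit, a lower bound where the density is 1, had medians of 19.2% for H3K27me3 and 14.9 and 12.5% for H3K27ac replicates 1 and 2 on the long arm. Below 30 Mb the medians were 11.3, 9.90 and 8.55%.

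Over the whole arm, the share of strong regions by -log10 q was higher than below 30 Mb in H3K27me3 but not in H3K27ac. A -log10 q of at least 5 was reached by 48.4% of H3K27me3 regions on the long arm (exact 95% interval 35.8 to 61.3%), against 28.1% below 30 Mb (23.8 to 32.7%). For H3K27ac the shares were 29.3 and 24.3% in replicates 1 and 2 on the long arm, against 31.6 and 31.3% below 30 Mb. Within the arm the H3K27ac shares were 44.1 and 38.5% from 70 Mb to the end, against 14.0 and 12.7% from 30 to 70 Mb. For H3K27me3 they were 47.8% from 70 Mb to the end and 48.8% from 30 to 70 Mb. From 70 Mb to the end all 3 lists lay above all 24 other chromosomes. From 30 to 70 Mb H3K27me3 lay above all 24 and both H3K27ac replicates lay below all 24. On the other 24 chromosomes the H3K27me3 share ran from 32.7 to 42.4%, so the long arm lay above that range and the stretch below 30 Mb under it. Every interval given here covers counting error only, because regions close together share tags and PCR copies of a read were not told apart by molecular tags.

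Agreement between the H3K27ac replicates on the whole long arm was not separable from that below 30 Mb. A long-arm region counted as found again where it shared 1 bp or more with the other list. In replicate 1 this held for 151 of 232 regions, which is 65.1% (exact 95% interval 58.6 to 71.2%), against 60.0% below 30 Mb (57.0 to 63.0%) and 59.3% over the whole list. Of the long-arm regions of replicate 2, 146 of 387 were found in replicate 1, or 37.7% (32.9 to 42.8%), against 42.9% below 30 Mb (40.4 to 45.5%) and 43% over the whole list. The 2 directions differed from the rest of the chromosome with opposite signs, and the intervals overlapped in both. Set against the other 24 chromosomes, the long-arm share of replicate 2 lay below all of them and that of replicate 1 did not leave their range.

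Agreement was uneven within the arm. From 70 Mb to the end, 80.5% of replicate 1 regions (exact 95% interval 72.2 to 87.2%) and 52.9% of replicate 2 regions (45.2 to 60.5%) were found in the other replicate. From 30 to 70 Mb the shares were 49.1% (39.6 to 58.7%) and 25.4% (19.7 to 31.7%). The intervals did not overlap in either direction. Over whole chromosomes elsewhere, the shares ran from 55.2 to 66.0% for replicate 1 and from 39.1 to 47.6% for replicate 2, so the end of the arm lay above and the rest of the arm below both ranges.

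Agreement rose with the strength of a region, and region strength also differed within the arm. For long-arm regions of replicate 2 it was 8.27% with a -log10 q under 2.5, 35% from 2.5 to 5, 75.9% from 5 to 10 and 97.2% at 10 or more. Below 30 Mb these shares were 17.1, 34.7, 66.5 and 96.1%. For replicate 1 they were 45.2, 58.2, 89.3 and 91.7% on the long arm, against 29.4, 54.8, 89.7 and 100% below 30 Mb. These classes of -log10 q do not match region width or regions per Mb, both of which were higher from 70 Mb to the end. Whether these bear on the share was not tested. By class, the end of the arm had the higher share than the rest of the arm in all but the strongest class of replicate 1. The intervals overlapped in all classes but 1, the regions of replicate 1 with a -log10 q of 5 to 10. There 97.7% (87.7 to 99.9%, 42 of 43) were found again from 70 Mb to the end, against 61.5% (31.6 to 86.1%, 8 of 13) from 30 to 70 Mb. Only 1 region with a -log10 q of at least 10 was missed in each direction: one of replicate 1 from 72390489 to 72391024 with a fold of 9.32, and one of replicate 2 from 40723395 to 40723873 with a fold of 7.26. These were singled out after their values were seen.

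**Figure D4:**
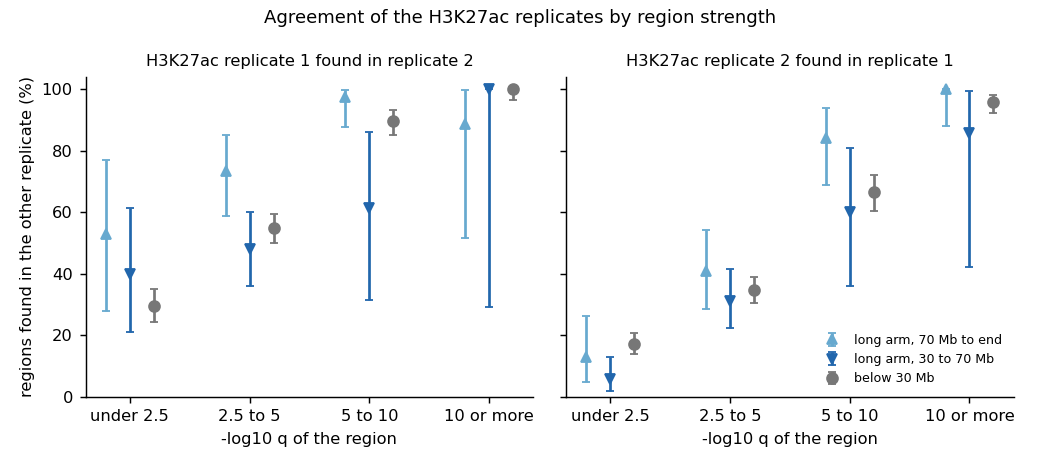
Share of H3K27ac regions found in the other replicate (vertical axis, %) by the -log10 q of the region, with replicate 1 regions on the left and replicate 2 regions on the right. Symbols stand for the end of the long arm, the rest of the long arm and chromosome 4 below 30 Mb, and bars are exact 95% intervals. In replicate 2 the long-arm share, both stretches together, was 8.27% in the weakest class and 97.2% in the strongest.

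H3K27ac found in both replicates formed 153 intervals on the long arm, 97 of them from 70 Mb to the end and 56 from 30 to 70 Mb. They covered 55869 bp, with a median width of 336 bp, against 663 intervals with a median of 362 bp below 30 Mb. The density of the 2 replicates varied together across these 153 pairs (Spearman rho 0.79), against 0.96 across the 663 pairs below 30 Mb. Pairs share their library and depth and are not independent, and values at the floor of 1 have no order. Both replicates were at the floor in 11.8% of pairs on the long arm and in 0.302% below 30 Mb. The log2 ratio of density, replicate 2 over replicate 1, varied with an SD of 0.34 about a median of 0 on the long arm, against an SD of 0.26 below 30 Mb. For the deposited fold the SD was 0.41 in both stretches.

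**Figure D5:**
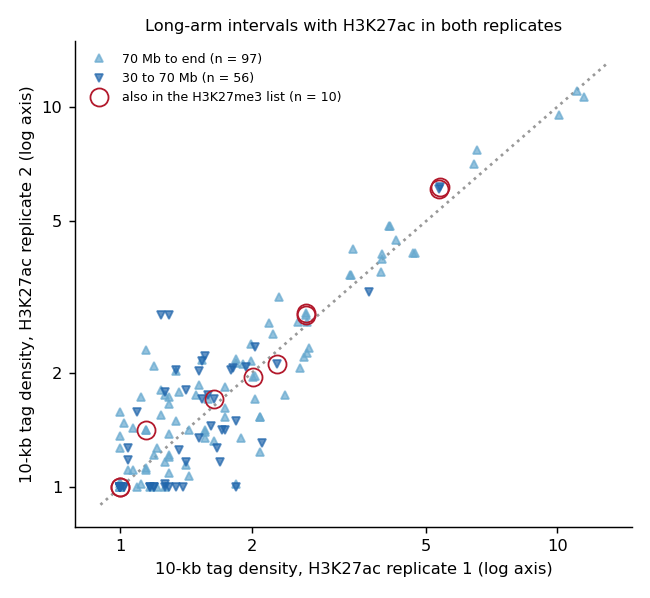
The 10-kb tag density of H3K27ac replicate 2 against that of replicate 1 (both log axes) at the 153 long-arm intervals found in both replicates. Up-pointing triangles lie from 70 Mb to the end, down-pointing ones from 30 to 70 Mb, and red circles mark the 10 intervals that are also in the H3K27me3 list. The dotted line is equality. The 3 densest intervals, at densities between 9.54 and 11.5, are neighbours from 74834878 to 74838920 that share window tags, so they are 1 dense place. Most points lie under 3 in both replicates.

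The 10 strongest paired intervals, ordered by the worse of their -log10 q ranks in the 2 lists, lay mostly near the end of the arm. Of them, 7 were between 72.7 and 78.0 Mb, and the others were at 63.4, 36.3 and 31.3 Mb. First came the interval from 63365121 to 63365392, which is described with the H3K27me3 regions below. The next, from 75056759 to 75057573, had pileups of 36 and 37 tags in replicates 1 and 2, folds of 7.74 and 6.86 and a density of 4.42 ± 0.42 (SD, n = 2). The one after it, from 74836473 to 74837017, had pileups of 54 and 56 and folds of 5.36 and 4.49. Its density of 11.1 ± 0.61 (SD, n = 2), from 463 and 585 window tags, was the highest of the 10.

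The remaining intervals of this list stood in sparser windows than intervals 2 and 3, but in denser ones than the first, whose density was 1 in both replicates. Interval 4, from 72723373 to 72723765, had a density of 2.70 ± 0.03, and interval 5, from 77981448 to 77982102, had 3.82 ± 0.18 (SD, n = 2 each). Interval 6, from 73933767 to 73934285, had folds of 6.98 and 9.58 in replicates 1 and 2 at a density of 2.06 ± 0.11 (SD, n = 2). At interval 7, from 36251166 to 36252073, the pileup was 24 in both replicates and the density 2.28 and 2.11, and this place also held an H3K27me3 region. Interval 8, from 31311831 to 31312340, had folds of 7.21 and 8.12, interval 9, from 73371662 to 73372304, 9.85 and 7.59, and interval 10, from 73773526 to 73773956, 7.14 and 9.80. Between 14.5 and 30.5% of the window tags lay at the summit of intervals 4 to 10 in replicate 1.

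Of the 153 paired H3K27ac intervals, 95 had no neighbour within 12.5 kb, against 289 of 663 below 30 Mb. From 70 Mb to the end this held for 49 of 97 intervals, and from 30 to 70 Mb for 46 of 56. With gaps of up to 12.5 kb bridged, the 153 intervals made 118 groups, of which 80.5% were single intervals, against 67.1% below 30 Mb. Within the arm this share was 90.2% from 30 to 70 Mb and 73.1% from 70 Mb to the end. The gap was not scaled to the number of intervals per Mb, which differed between the stretches. All 7 groups of at least 3 intervals lay from 70 Mb to the end. The group with most intervals ran from 74922072 to 74944000, with 6 intervals in 21.9 kb and densities of up to 6.55 and 7.70 in replicates 1 and 2. Another, from 74834878 to 74847802, held the densest H3K27ac of the arm, at up to 11.5 and 11.0. A further one, from 77957462 to 77982102, spanned 24.6 kb with 4 intervals at densities of up to 3.97 and 3.98. None of the 3 held an H3K27me3 region.

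The 64 H3K27me3 regions were of different kinds. The strongest, from 63365085 to 63365400, had a fold of 28.4, and 97.1% of the 68 tags in its window lay at the summit. The H3K27ac lists called the same place, with pileups of 20 and 50 tags in replicates 1 and 2, folds of 11.6 and 24.3 and a density of 1 in both. In H3K27ac at least 49.6 and 90.8% of the window tags lay at the summit in replicates 1 and 2. With a width of 316 bp in the H3K27me3 list, this was a narrow stack of reads shared by all 3 libraries. Its cause was not tested.

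Among the other strong H3K27me3 regions, those at 77.7, 39.9 and 40.8 Mb had 38.1 to 50% of their window tags at the summit. The long-arm median was 19.2%. The remaining strong regions stood in broader signal. The second, from 61291522 to 61292843, measured 1322 bp, had a pileup of 107 and a density of 26.7, and was overlapped by a region of H3K27ac replicate 2 (fold 5.42) but by none of replicate 1. The third, from 77696913 to 77697655, had a fold of 15 with 40.8% of 130 window tags at the summit and no H3K27ac region. The fourth, from 67885132 to 67885927, had a fold of 10.7 and a density of 11.1. It formed a domain with the ninth, from 67883767 to 67884378, which had a fold of 5.98. The fifth, from 75174284 to 75176034, spanned 1751 bp with 4 summits and a density of 24.2. The eighth is the widest region named above, with 5 summits and a density of 44.1. The seventh, from 39892138 to 39892527, and the tenth, from 40764484 to 40765039, had only 38 and 42 tags in their windows, of which 50 and 38.1% lay at the summit.

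The densest H3K27me3 of the long arm lay in 1 domain near its end. With gaps of up to 3 kb bridged, the 64 regions formed 52 domains, of which 45 were single regions. The largest ran from 74379235 to 74390018, with 6 regions in 10.8 kb at densities of 84.9 to 136. Its regions had low folds of 1.59 to 2.78, since the window was full of tags. The sixth strongest region of the arm, from 74381453 to 74382246, lies in it, with a pileup of 126 from 2248 window tags. These 6 regions were among the 11 in the bin from 70 to 75 Mb, whose median density was 84.9, against at most 5.35 in each bin from 30 to 70 Mb.

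H3K27ac bordered this domain on both sides. This flank was looked at after the values were seen. To the left, at 74378322 in replicate 1 and 74378037 in replicate 2, H3K27ac had lower folds of 4.05 and 3.62, at densities of 3.97 and 4.11. To the right, at 74393395 and 74393358, it had folds of 8.56 and 6.16 and densities of 2.38 and 1.74. Inside the domain replicate 1 had no H3K27ac region and replicate 2 had 1 of 266 bp, with a fold of 3.37. The second largest domain, with 3 H3K27me3 regions from 77558427 to 77561461 and densities of 39.7 to 44.1, likewise held no region of replicate 1 and 1 of replicate 2, at a density of 1.

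With 64 H3K27me3 regions, the share of them that overlapped H3K27ac could not be told from that below 30 Mb. Of the H3K27me3 regions, 9 of 64 overlapped H3K27ac found in both replicates, or 14.1% (exact 95% interval 6.64 to 25%), against 7.86% below 30 Mb (5.47 to 10.9%) and 12% over the whole list. These 9 include the narrow stack of reads at 63.4 Mb described above. The other 24 chromosomes ran from 9.65 to 16.2%, a range that held the long arm but not the stretch below 30 Mb. The order depended on the rule. With lists of equal length it was 3.12% on the long arm and 2.86% below 30 Mb, with a 50% reciprocal overlap 3.12% on the long arm and 4.05% below 30 Mb, and at a -log10 q of 5 or more 12.9% on the long arm and 1.69% below 30 Mb. With replicate 2 alone the shares were 26.6% on the long arm (16.3 to 39.1%), against 16.0% below 30 Mb (12.6 to 19.8%) and 22.9% over the whole list. With replicate 1 alone they were 14.1% on the long arm and 11.9% below 30 Mb, against 17.3% over the whole list. In the other direction, 9 of 232 H3K27ac regions of replicate 1 (3.88%) and 18 of 387 of replicate 2 (4.65%) overlapped H3K27me3 on the long arm. Below 30 Mb these shares were 4.47 and 4.53%, and over the whole lists 6.48 and 6.5%. The median distance from an H3K27me3 region to the nearest paired H3K27ac interval was 63.0 kb on the long arm, against 13.3 kb below 30 Mb, while 29.7% on the long arm and 31.2% below 30 Mb had one within 5 kb. The distance was 7.01 kb from 70 Mb to the end, shorter than below 30 Mb, and 103 kb from 30 to 70 Mb.

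The 9 H3K27me3 regions with both marks held 10 paired H3K27ac intervals, which lay between 36.3 and 75.2 Mb. Besides the stack at 63.4 Mb, they are given here mark by mark, since values of different antibodies are not on 1 scale. At 48.6 Mb a pair of H3K27me3 regions, from 48616174 to 48618457, stood at a density of 17.5, and the 2 paired H3K27ac intervals over them reached 5.71 ± 0.50 and 5.77 ± 0.55 (SD, n = 2 each). This place held the widest H3K27ac region of each replicate. At 36.3 Mb the H3K27me3 region from 36251055 to 36251519 had a fold of 7.41 and a density of 1.68, and H3K27ac had folds of 8.80 and 7.62.

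At the other places fewer tags stood behind at least 1 list's call. At 67.9 Mb, where H3K27me3 had a -log10 q of 36.4, H3K27ac measured pileups of 5 and 10 tags in replicates 1 and 2. At 75.2 Mb, under the region of 1751 bp, H3K27ac had folds of 2.87 in replicate 1 and 3.64 and 3.37 in replicate 2, where it was called as 2 regions. At 72.0 Mb H3K27me3 had a fold of 7.00 and H3K27ac 3.65 and 3.91. At 73.8 Mb the H3K27me3 region was 200 bp long with 5 tags at its summit, and H3K27ac had a fold of 4.20 and 5.73. At 52.0 Mb all 3 folds were between 3.79 and 4.86.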

How the data were processed

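The 3 peak lists used come from 1 library each, and replicates were not pooled. MACS2 2.2.7.1 and Bowtie2 2.4.5 are among the tools named, beside the build danRer11, per the submitters' processing notes. The settings, and any control library, are not stated there. The authors' deposited fold is a ratio of pileup to local background. Deposited p-value and q-value columns are on the -log10 scale. The deposited score follows the -log10 q and was not used further. The lowest -log10 q was 1.30.

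Rows that touched or overlapped were merged, and a region kept the highest of each value, so that values of a region with several summits can come from different summits. The mitochondrial genome was left out of comparisons. In MACS2 the fold adds 1 to both pileup and background before dividing, and p is the Poisson tail above the pileup. This pair of equations was solved for pileup and background. Backgrounds above the genome-wide value were whole multiples of 0.02 (within 0.05 of a multiple) in 100% of rows. These were read as 200-bp tags averaged over 10 kb, a reading from the values and not from the labels. Several solutions were possible at 3 long-arm rows, and the one nearest to the genome-wide background or to a whole number of tags was taken. The code was tested on simulated data.

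The long arm was measured up to the outermost called region. Shares have exact Clopper-Pearson 95% intervals. Paired H3K27ac is the intersection in bp. The members, the split at 70 Mb and the lists were chosen with earlier results of these data known. Named are all long-arm intervals in all 3 lists, the 10 strongest paired H3K27ac intervals and the 10 strongest H3K27me3 regions by -log10 q, the widest regions and the longest empty stretch. Alternatives were another threshold, other boundaries, unmerged rows, equal list sizes, another overlap rule and single replicates. Computation used Python 3.11.15 with pandas 2.3.3, scipy 1.17.1, numpy 2.4.6 and, for plots, matplotlib 3.10.9.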

Additional observations from a re-analysis of the deposited data

Results flagged for a closer look

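Between the long arm and the rest of chromosome 4, the sign of the difference in the H3K27me3 library was opposite to that in both H3K27ac libraries for 2 measures. The share of regions with a -log10 q of at least 5 differed by 20.3 percentage points in H3K27me3, and by -2.28 and -7.02 in H3K27ac replicates 1 and 2. The share of regions of at most 220 bp differed by -4.48 percentage points in H3K27me3, and by 2.61 and 6.94 in H3K27ac. Each is the long arm minus the stretch below 30 Mb, and the difference between the marks was not tested.

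Between the end of the arm and its rest (70 Mb to the end minus 30 to 70 Mb) the signs as computed were opposite for 4 measures, again untested. The median fold differed by -0.42 on the log2 scale in H3K27me3, and by 0.22 and 0.14 in H3K27ac replicates 1 and 2. In 2 of the 4 the H3K27me3 difference was smaller than 1 region makes, so its sign carries no direction. The share with a -log10 q of at least 5 differed by -0.954 percentage points in H3K27me3 (11 of 23 against 20 of 41 regions), and by 30.03 and 25.8 in H3K27ac. The share of regions of at most 220 bp differed by 0.318 percentage points in H3K27me3 (4 of 23 against 7 of 41 regions), and by -9.34 and -12.1 in H3K27ac. The median share of window tags at the summit differed by -7.13 percentage points in H3K27me3, and by 0.735 and 1.05 in H3K27ac. That share is a lower bound where the density is 1. A density of 1 held at 36.8 and 58.2% of H3K27ac regions from 30 to 70 Mb in replicates 1 and 2, against 14.4 and 28.7% from 70 Mb to the end. The sign of this H3K27ac difference is therefore not settled. H3K27me3 has 1 library, and 23 of its regions lie from 70 Mb to the end.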

How the results depend on the processing

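The log2 ratio of regions per Mb, long arm over below 30 Mb, was below 0 in all 14 alternatives run, from -3.77 to -2.36. No paired analysis was possible because H3K27me3 and H3K27ac share only replicate number 1. Of the other values, those that moved by more than the replicate spread or their 95% interval follow (counts, by over 1.5 times), and their causes were not tested beyond how each alternative is built.

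Restricted to a -log10 q of 5 or more, the long arm held 31 H3K27me3 regions and 68 and 94 H3K27ac regions in replicates 1 and 2, at log2 ratios per Mb of -2.61 (H3K27me3) and -2.99 (H3K27ac). Width differed by -291 bp (H3K27me3) and -24.5 bp (H3K27ac), and the H3K27ac fold by 0.32 on the log2 scale. Replicate agreement was 72.1 and 50% on the long arm for replicates 1 and 2, against 77.6 and 55.5% below 30 Mb. H3K27me3 overlapped H3K27ac in 12.9% on the long arm and 1.69% below 30 Mb, and H3K27ac overlapped H3K27me3 in 5.40% on the long arm and 0.835% below.

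With the boundary at 25 Mb there were 102 H3K27me3 regions and 363 of H3K27ac replicate 1, at log2 ratios of -2.99 (H3K27me3) and -2.36 (H3K27ac). At 35 Mb the H3K27ac ratio was -2.48. Without regions from 70 Mb on, the counts were 41, 114 and 213, the H3K27ac ratio -3.43, its width difference -59.2 bp, its fold difference 0.16, its agreement 49.1 and 25.4%, and its overlap with H3K27me3 4.98%.

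With single rows the H3K27ac ratio was -2.95, agreement 45.4% on the long arm in replicate 2, against 67.7 and 54.0% below 30 Mb in replicates 1 and 2, and H3K27ac overlap with H3K27me3 5.04% on the long arm and 4.38% below. With 17121 regions from each list there were 82 and 77 H3K27ac regions, at a ratio of -3.03 and a fold difference of 0.32. Agreement was 59.7% on the long arm in replicate 2, against 65.9 and 64.0% below 30 Mb in replicates 1 and 2. H3K27me3 overlapped H3K27ac in 3.12% on the long arm and 2.86% below, and H3K27ac overlapped H3K27me3 in 5.08 and 4.83%.

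With a 50% reciprocal overlap, agreement was 43.1 and 25.8% on the long arm in replicates 1 and 2, against 43.2 and 31.4% below 30 Mb. H3K27me3 overlapped H3K27ac in 3.12% on the long arm and 4.05% below, and H3K27ac overlapped H3K27me3 in 1.59 and 2.06%. With a peak in either H3K27ac replicate these shares were 26.6 and 20.0%, and 3.65 and 4.29%. Leaving out 1 H3K27ac replicate gave 14.1 to 26.6% of H3K27me3 overlapping H3K27ac on the long arm and 11.9 to 16.0% below. The depth of the H3K27me3 library, 33.6% of H3K27ac replicate 2, and its 64 regions limit every share of that mark.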

Other observations

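In the RefSeq table of another zebrafish assembly (GRCz12tu), chromosome 4 as a whole carries 97.2% of the annotated ribosomal RNA genes, 76.0% of the small nuclear RNA genes and 67.2% of the transfer RNA genes, against 6.77% of the protein-coding genes. That table was not set against the regions, since its positions are of another build.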
